A study of Mus musculus with 8 samples.

Results

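Rhox and Tgif2lx genes encode homeodomain transcription factors that lie on the X chromosome of the mouse and are used mainly in the testis and other reproductive tissues. The group examined here holds 10 genes: Rhox11, Rhox5, Rhox8, Rhox10, Rhox13, Rhox2a, Rhox3a, Rhox4b, Tgif2lx1 and Tgif2lx2. Their probes were chosen by the platform's gene symbol alone, which found 6 of the 45281 probes on the array. Rhox11, Rhox5, Rhox8, Rhox10, Rhox13 and Tgif2lx1 each had 1 probe. Rhox2a, Rhox3a, Rhox4b and Tgif2lx2 had no probe under their own symbol and are not analysed here.

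Rhox genes form a cluster of tandem copies in which different members are switched on in Sertoli cells, the nurse cells of the seminiferous tubule, or in germ cells at different steps. The GRCm38.p6 gene table lists 33 protein-coding Rhox genes, all on X, with 8 copies in the Rhox2 series, 7 in the Rhox3 series and 8 in the Rhox4 series. Tgif2lx1 and its neighbour Tgif2lx2 belong to the TALE class of homeodomain proteins and are X-linked relatives of Tgif1 and Tgif2, which encode repressors of transcription that limit TGF-beta responses. Genes on X are largely silenced in spermatocytes during meiosis, and many remain low in round spermatids, the haploid cells that follow.

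Round spermatids were prepared from testes of mice aged 8 weeks by centrifugal elutriation, and their total RNA was hybridised to 8 Illumina bead arrays. The wildtype group, with no transgene, held 4 arrays; 2 arrays came from mice with an shSLX RNAi construct and 2 from mice with an shSLY RNAi construct. The constructs are directed against Slx and Slxl1, multicopy genes of X, and against Sly, their multicopy relative on Y, and the series set each against controls of the same age and strain. The strain, the promoter of the constructs, and whether arrays of a group came from separate animals are not given in the sources used here, so the p-values rest on the spread among these arrays alone, which may be technical. By the array labels, wildtype 2 lay on slide 1, wildtype 1 with both shSLY arrays on slide 2, and wildtype 3 and 4 with both shSLX arrays on slide 3.

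The names of the arrays carry a doubt that bears on both comparisons with wildtype and on the slides. In the non-normalized table, 2 of the 8 columns had the ranks of their own sample in the series matrix, 4 had those of a different sample and 2 matched none. The columns headed wildtype 3 and 4 matched shSLY 1 and 2, and those headed shSLY 1 and 2 matched shSLX 1 and 2. Values here follow the series matrix, named by sample accession. The slides were read from the array labels, which also head the non-normalized table. Under its headers the shSLY values would lie on slide 3 and the shSLX values on slide 2. No column there held the ranks of wildtype 3 or 4. The slide term and the differences within a slide carry the same doubt. Sly, the targeted gene with a probe, was not lower in the arrays labelled shSLY (log2 fold change -0.11 ± 0.21 SE, limma adjusted p = 0.959) and fell in those labelled shSLX (-0.86 ± 0.17, adjusted p = 0.0377). No probe was named Slx or Slxl1. The tissue label was set beside 12 round spermatid markers: 11 had a probe, 10 of them passed the detection filter, and their summed deposited signal lay between 93330 and 105300 on all 8 arrays. A steady sum of normalized values, led by Prm1 and Tnp1 (mean log2 signal 15.15 and 14.02), says little about purity. Markers of other cells were called higher in the arrays labelled shSLX: 3 of 3 tested peritubular genes (Dcn at 1.18, Acta2 at 0.82 and Myh11 at 0.78 on the log2 scale), 2 of 5 immune genes (Lyz2 at 0.95 and C1qc at 0.56), 1 of 5 spermatogonial genes (Sohlh1 at 0.735) and 1 of 2 epididymal genes (Defb21 at 1.64). Of all 16572 tested probes, 2.19% were called higher there. In shSLX none of the 5 tested Sertoli genes, 7 spermatocyte genes and 10 round spermatid genes was called, nor was the 1 Leydig gene. Their medians were -0.16, -0.023, -0.022 and -0.105. None of these marker lists had a call in shSLY.

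The promoter windows of the 3 Rhox genes that could be tested are shown because these genes share a cluster and their values are set side by side below. Each window holds 250 bases before and 50 after the RefSeq transcription start in GRCm38.p6, 5′ to 3′ on the gene's strand. Rhox11 is at chrX:38085090-38085389 on the minus strand, Rhox13 at chrX:38120590-38120889 on the plus strand and Rhox5 at chrX:37754358-37754657 on the plus strand. Capitals mark matches to the motifs named after the sequences.
Rhox11: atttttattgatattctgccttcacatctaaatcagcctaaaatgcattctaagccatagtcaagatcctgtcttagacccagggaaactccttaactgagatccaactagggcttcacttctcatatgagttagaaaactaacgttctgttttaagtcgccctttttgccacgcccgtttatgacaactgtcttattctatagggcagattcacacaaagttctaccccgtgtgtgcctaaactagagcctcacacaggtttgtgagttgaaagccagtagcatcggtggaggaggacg
Rhox13: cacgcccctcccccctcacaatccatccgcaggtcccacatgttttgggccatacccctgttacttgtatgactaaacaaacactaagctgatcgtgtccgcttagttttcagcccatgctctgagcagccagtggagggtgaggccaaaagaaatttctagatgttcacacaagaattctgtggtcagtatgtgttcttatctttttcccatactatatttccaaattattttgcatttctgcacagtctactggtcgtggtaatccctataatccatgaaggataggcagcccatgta
Rhox5: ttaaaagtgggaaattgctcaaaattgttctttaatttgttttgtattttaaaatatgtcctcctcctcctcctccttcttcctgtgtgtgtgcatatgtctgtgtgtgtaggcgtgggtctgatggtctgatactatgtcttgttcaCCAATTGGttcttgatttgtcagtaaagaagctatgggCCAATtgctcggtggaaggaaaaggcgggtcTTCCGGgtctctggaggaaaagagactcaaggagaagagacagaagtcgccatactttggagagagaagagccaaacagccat

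Motifs were searched on both strands. The Rhox5 window held the CCAAT box (CCAAT) at 3 places, beginning 102, 99 and 64 bases before the start. The second of these was on the other strand and overlapped the first. An ETS core (CCGGAA, also on the other strand) began 33 bases before the start. Of all 32851 promoter windows of this length, 37.4% held CCAAT and 14.9% held CCGGAA. The Rhox11 and Rhox13 windows held no match to these letters, nor to TATAAA (in 13.6% of windows), CACGTG (7.15%), TGACG (20.8%) or GGGCGG (35.7%). GC content was 43% for Rhox11, 45.3% for Rhox13 and 43.7% for Rhox5. A promoter window was held for 7 of the 10 genes.

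**Figure D1:**
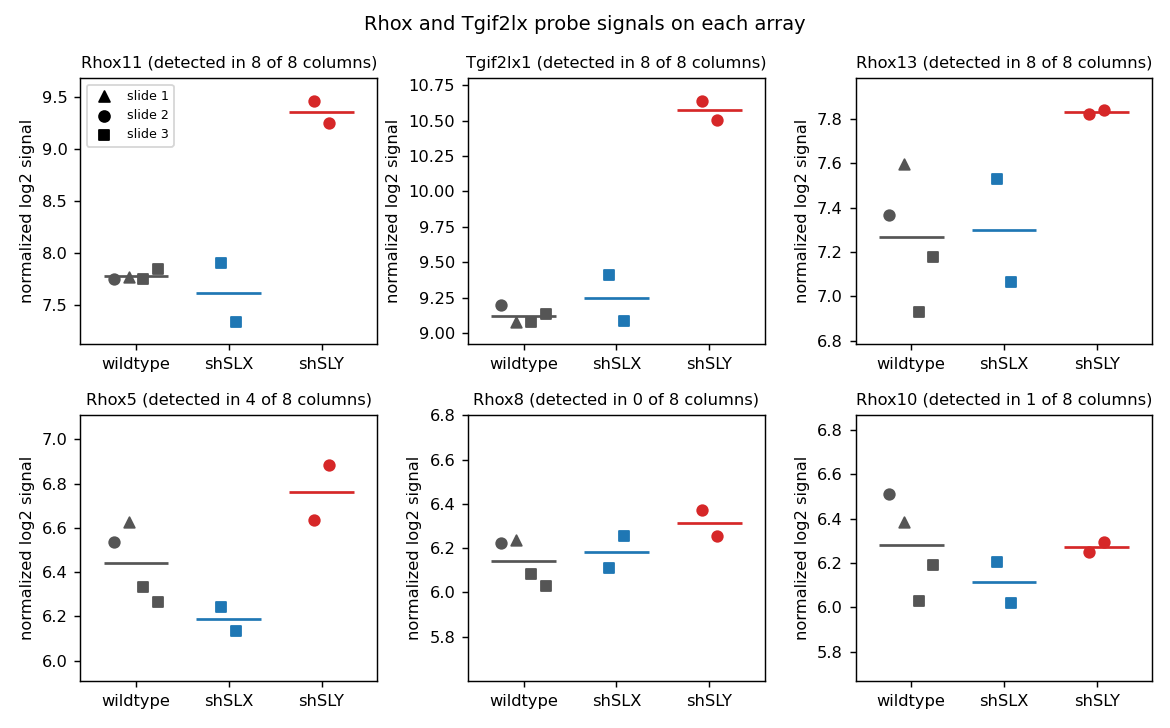
Normalized log2 signal of the 6 probes on each of the 8 arrays, grouped as wildtype, shSLX and shSLY, with marker shape for the slide and a line at the group mean. The y axis spans a different range in each panel. Both shSLY arrays stand above every other array for Rhox11 and Tgif2lx1, and by less for Rhox13 and Rhox5. Both lay above all wildtype arrays for 16.6% of all tested probes. Rhox8 and Rhox10 were detected in 0 and 1 of the 8 columns.

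Rhox11 and Tgif2lx1 rose in the arrays labelled shSLY, and Rhox13 and Rhox5 did not pass the test. Rhox11 was 3.04-fold higher and Tgif2lx1 2.59-fold higher than wildtype. Of the 4 tested probes, 2 were called higher and none lower, against a background of 0.579% of 16572 tested probes called higher and 0.133% called lower. In all tested genes on X the median log2 fold change was 0.43 over 263 genes, against -0.012 over all 9451 genes, and 31 of the 263 X genes were called higher. The 5th and the 95th percentile of the X genes were -0.011 and 1.19, and both homeobox genes lay above the latter.

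Rhox11, a homeobox gene reported in male germ cells, had deposited signals of 217.6, 219.5, 217.5 and 232.5 in wildtype 1 to 4. In shSLY 1 and 2 its signals were 710 and 610.5. In shSLX 1 and 2 they were 241.1 and 163.5. The shSLY arrays were thus both far above the others, the wildtype arrays lay close together, and the shSLX arrays fell on either side of the wildtype range. On the log2 scale, Rhox11 in shSLY differed from wildtype by 1.60 ± 0.21 (SE), with a 95% interval of 1.12 to 2.09 and a limma adjusted p of 0.0216. Against wildtype 1 on their own slide, shSLY 1 was higher by 1.71 and shSLY 2 by 1.496. That rise was the first of 348 tested X probes by size and the 7th of all 16572 tested probes.

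Tgif2lx1 had deposited signals of 588.8, 542.8, 541.7 and 563 in wildtype 1 to 4. They were 1599 and 1452 in shSLY 1 and 2, and 682.7 and 544.3 in shSLX 1 and 2. Again the shSLY pair stood clear of all other arrays, and shSLX 2 lay within the wildtype range with shSLX 1 just above it. The fitted difference of shSLY from wildtype was 1.37 ± 0.16 on the log2 scale (95% interval 1.02 to 1.73, limma adjusted p = 0.0138). Against wildtype 1 on the same slide the 2 arrays were higher by 1.44 and 1.30. By size it was the 5th of the tested X probes and the 21st of all. Tgif2lx2 is its next neighbour in the gene table, and whether the probe also reads that transcript was not tested.

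Both calls depend on which arrays enter the fit. Without wildtype 3 or wildtype 4 the adjusted p was 0.122 for each gene, at log2 fold changes of 1.605 for Rhox11 and 1.374 for Tgif2lx1. Each of these fits called 2 of all 16572 tested probes higher and 3 lower, against 96 and 22 with all arrays. Without shSLY 1 the log2 fold changes were 1.496 and 1.30, and without shSLY 2 they were 1.71 and 1.44. With 1 shSLY array left, no test is given. By the array labels, wildtype 1 was the only wildtype array on the shSLY slide. With the slide term the fold changes are thus set by that 1 control array and cannot be had without it. Without the slide term all 4 wildtype arrays enter, and the values were 1.58 ± 0.14 for Rhox11 (adjusted p = 0.000442) and 1.45 ± 0.11 for Tgif2lx1 (adjusted p = 0.000241). With offset 16 in the background correction the adjusted p was 0.0614 for Rhox11 and 0.0498 for Tgif2lx1. That fit called 11 of all tested probes higher and 6 lower, and the fit without the slide term called 421 and 214. In the non-normalized table as headed, which brings other values, another normalization (neqc) and other array names at once, Rhox11 was at -0.19 (adjusted p = 0.843) and Tgif2lx1 at 0.053 (adjusted p = 0.936). The columns headed shSLY there hold the ranks of the shSLX arrays.

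**Figure D2:**
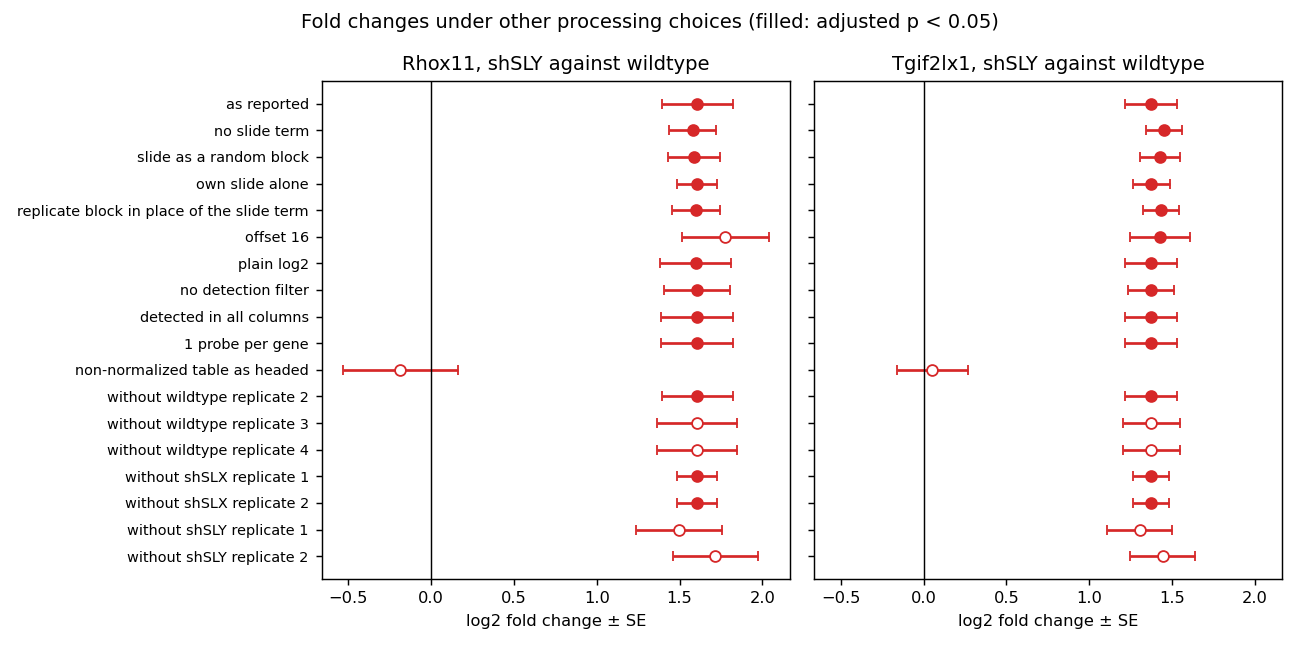
Log2 fold change of Rhox11 and Tgif2lx1 in the arrays labelled shSLY against wildtype (x axis) under each processing choice (y axis), with bars of 1 SE and filled points where the limma adjusted p was under 0.05. All points lie at 1.30 or above except those from the non-normalized table under its own headers and neqc normalization, at -0.19 and 0.053.

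Rhox13, a gene of spermatogonia and early spermatocytes, was detected in 8 of 8 columns. Its deposited signals were 167, 195.1, 123.5 and 146.7 in wildtype 1 to 4. They were 228.5 and 230.8 in shSLY 1 and 2, and 186.6 and 135.8 in shSLX 1 and 2. The shSLY arrays were both above all wildtype arrays, as they were for 16.6% of all tested probes. The wildtype arrays spread widely, with an SD of 0.28 on the log2 scale against 0.047 for Rhox11. The fitted difference in shSLY was 0.46 ± 0.19 (95% interval 0.023 to 0.90, limma adjusted p = 0.522), which lay 0.089 above the median of the tested X probes. Of 12 spermatogonial markers, 5 passed the filter, and their summed deposited signal was 680.4 to 1014 in wildtype, 933.6 to 973 in shSLX and 1052 to 1148 in shSLY. None of the 5 was called in shSLY, where 3 lay above 0 and the median was 0.055, and Zbtb16, Gfra1, Stra8 and Nanos2 did not pass the detection filter. Of 10 spermatocyte markers, 7 passed, and their sum ran the other way, at 5676 to 7097 in wildtype, 5735 to 8736 in shSLX and 4878 to 4916 in shSLY, with none called in shSLY. The part of either cell type in the Rhox13 values was not tested. In bulk samples, fewer cells of a type and less RNA per cell cannot be told apart.

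Rhox5, also known as Pem, is the founding member of the cluster and an androgen-responsive gene of Sertoli cells. It was detected in 4 of 8 columns, so that in the other columns its signal gives only a bound. Deposited signals were 94.39, 100.5, 82.2 and 78.5 in wildtype 1 to 4. They were 101.1 and 119.8 in shSLY 1 and 2, and 77.31 and 71.88 in shSLX 1 and 2. The 3 groups did not overlap, with shSLY above and shSLX below all wildtype arrays, yet wildtype 3 and 4 lay near the shSLX arrays of their slide and wildtype 1 and 2 near the shSLY arrays. With the slide in the fit, the difference was 0.23 ± 0.14 in shSLY (adjusted p = 0.762) and -0.11 ± 0.12 in shSLX (adjusted p = 0.657). Signals with both shSLY arrays above every wildtype array were common, at 16.6% of tested probes, as were those with both shSLX arrays below, at 13.4%.

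Sertoli markers followed the same slides, as labelled. Of 12 listed, 9 had a probe and 5 passed the filter, while Amh, Dhh, Fshr and Gata4 did not. The summed deposited signal of those 5 was 2061 and 2533 in wildtype 1 and 2, and 1102 and 1429 in wildtype 3 and 4. It was 2277 and 2524 in the shSLY arrays and 1088 and 1247 in the shSLX arrays. High and low sums thus fell on the same arrays as high and low Rhox5, and their part in the Rhox5 values was not tested.

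Rhox8 and Rhox10 did not pass the detection filter and were not tested. Rhox8, a second androgen-responsive Sertoli gene of the cluster, was detected in 0 of 8 columns, with deposited signals of 67.02 to 77.19 in wildtype, 70.69 to 78 in shSLX and 78.08 to 84.48 in shSLY. Rhox10, which acts in the founding of spermatogonial stem cells, was detected in 1 of 8 columns. Its signals were 66.96 to 93.09 in wildtype, 66.67 to 75.55 in shSLX and 77.77 to 80.35 in shSLY, and the shSLY arrays lay within the wildtype range. Rhox10 is next to Rhox11 in the gene table, 1 place away.

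The arrays labelled shSLX gave no call for any of the 4 tested probes, against backgrounds of 2.19% called higher and 0.223% called lower. Rhox11 differed from wildtype by -0.18 ± 0.18 on the log2 scale (limma adjusted p = 0.629), with a 95% interval of -0.58 to 0.22. The arrays disagreed, at 0.10 and -0.46 against wildtype on their own slide. Tgif2lx1 differed by 0.14 ± 0.13 (95% interval -0.15 to 0.43, adjusted p = 0.599), with its arrays at 0.31 and -0.021. Rhox13 differed by 0.24 ± 0.16 (adjusted p = 0.454), with arrays at 0.48 and 0.013. Without shSLX 2 the Rhox13 difference was 0.48, and with 1 shSLX array left no test is given. For Rhox11, Tgif2lx1 and Rhox13, shSLX 1 was the higher array of its pair. In the non-normalized table as headed all 4 probes were called lower. So were 1339 of all 16572 tested probes, and the X median was -0.71. Its columns headed shSLX match no array of the series matrix. Its columns headed wildtype 3 and 4, the controls on that slide, hold the ranks of the shSLY arrays.

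Rhox11 and Tgif2lx1 differed between the arrays labelled shSLX and shSLY, each set against wildtype. With the slide term this contrast needs wildtype 1, by the array labels the only control on the shSLY slide, and cannot be had without it. In limma's test of the shSLX effect minus the shSLY effect, Rhox11 was at -1.79 ± 0.28 on the log2 scale (adjusted p = 0.0216) and Tgif2lx1 at -1.23 ± 0.20 (adjusted p = 0.0259). Of the 4 tested probes, 2 were called lower in this contrast, against a background of 0.628% called lower and 1.17% called higher. Rhox13 was at -0.22 ± 0.25 (adjusted p = 0.763) and Rhox5 at -0.34 ± 0.18 (adjusted p = 0.478). The median X gene differed by -0.44. Both calls were lost without wildtype 3 (adjusted p = 0.151 for Rhox11 and 0.171 for Tgif2lx1) or wildtype 4 (0.175 and 0.186). Of all 16572 tested probes, 13 were called higher and 1 lower without wildtype 3. Without wildtype 4 the counts were 11 and 2, against 194 and 104 with all arrays. Leaving out wildtype 3, wildtype 4, shSLY 1 or shSLY 2 gave differences of -1.896 to -1.677 for Rhox11 and -1.301 to -1.161 for Tgif2lx1. With 1 shSLY array left, no test is given. In the non-normalized table as headed the differences were -1.86 (adjusted p = 0.223) and -1.85 (adjusted p = 0.0642). These do not repeat the same contrast. There the columns headed shSLY hold the ranks of the shSLX arrays, and those headed wildtype 3 and 4 hold the ranks of the shSLY arrays. The columns headed shSLX match no array of the series matrix. Without the slide term Rhox5 also passed, at -0.57 ± 0.14 (adjusted p = 0.0289). That fit called 1187 of all 16572 tested probes higher and 1258 lower. With the slide term, the peritubular gene Dcn, at 1.02 (adjusted p = 0.042), and the epididymal gene Defb21, at 2.13 (adjusted p = 0.000722), were called in the same contrast. The part of other cells in these differences was not tested.

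**Figure D3:**
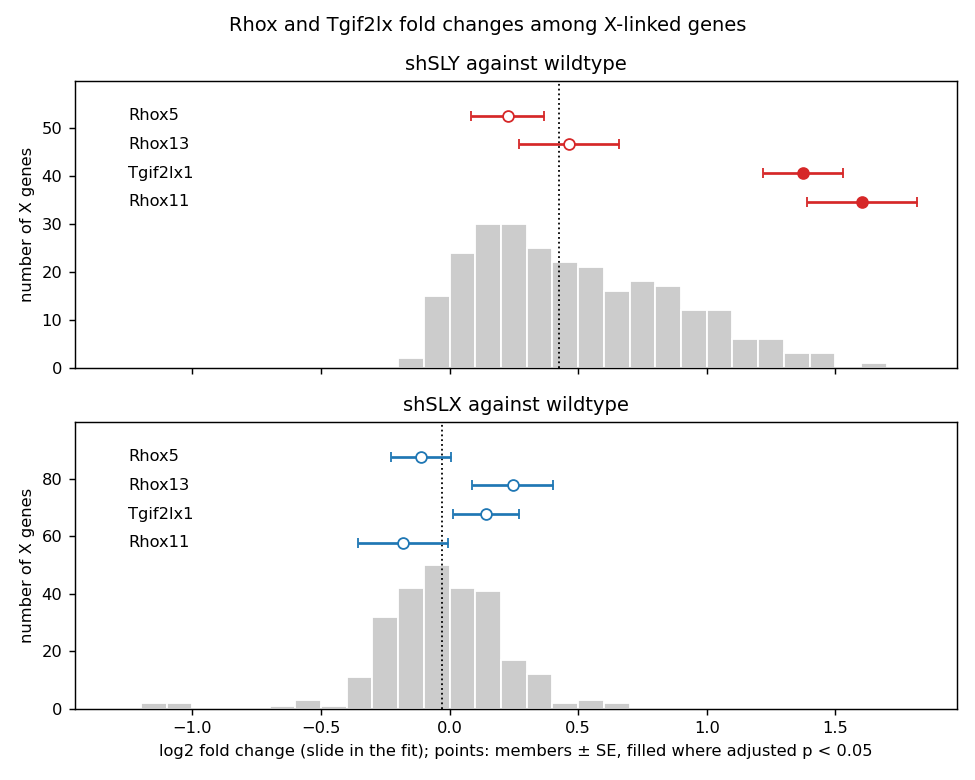
Histograms of the log2 fold changes of 263 X genes (grey, number of genes on the y axis) in the shSLY and shSLX comparisons, with a dotted line at the X median (0.43 and -0.028). The points are Rhox5, Rhox13, Tgif2lx1 and Rhox11 with bars of 1 SE, filled where the adjusted p was under 0.05. Rhox11 and Tgif2lx1 lie at the right edge of the X genes in shSLY and inside the bulk of them in shSLX.

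Neighbours of the members on X did not rise evenly. The 5 tested genes on each side of the tested Rhox genes had shSLY log2 fold changes of -0.12 to 1.36, with a median of 0.26. Of these 10, 2 were called higher, beside 31 of all 263 tested X genes. They were Akap14, a protein kinase A anchoring gene of sperm (1.01 ± 0.16, limma adjusted p = 0.0313), and Cypt15 (1.36 ± 0.23, adjusted p = 0.0438). Between Rhox5 and Rhox11, Btg1c was at 1.04 ± 0.23 (adjusted p = 0.101). Genes expressed in most cell types were found at both ends of this range without passing the test, among them the ribosomal protein gene Rpl39 at 1.06 ± 0.51, the mitochondrial carrier gene Slc25a5 at 0.85 ± 0.24, the lysosomal membrane gene Lamp2 at 0.14 ± 0.20 and Ndufa1, of respiratory complex I, at -0.019 ± 0.16.

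Around Tgif2lx1, the 10 nearest tested genes ranged from 0.23 to 1.27 with a median of 0.85. Among them 2 were called higher, again beside 31 of the 263 X genes: Satl1 (1.07 ± 0.18, limma adjusted p = 0.0442) and Cldn34c1, a claudin relative (1.27 ± 0.22, adjusted p = 0.047). In shSLX, where 1 of the 263 X genes was called higher and 3 lower, none of the 10 neighbours of either region was called. The neighbours' values there lay between -0.51 and 0.61. Whether the neighbours of the 2 regions differ from other X genes was not tested.

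**Figure D4:**
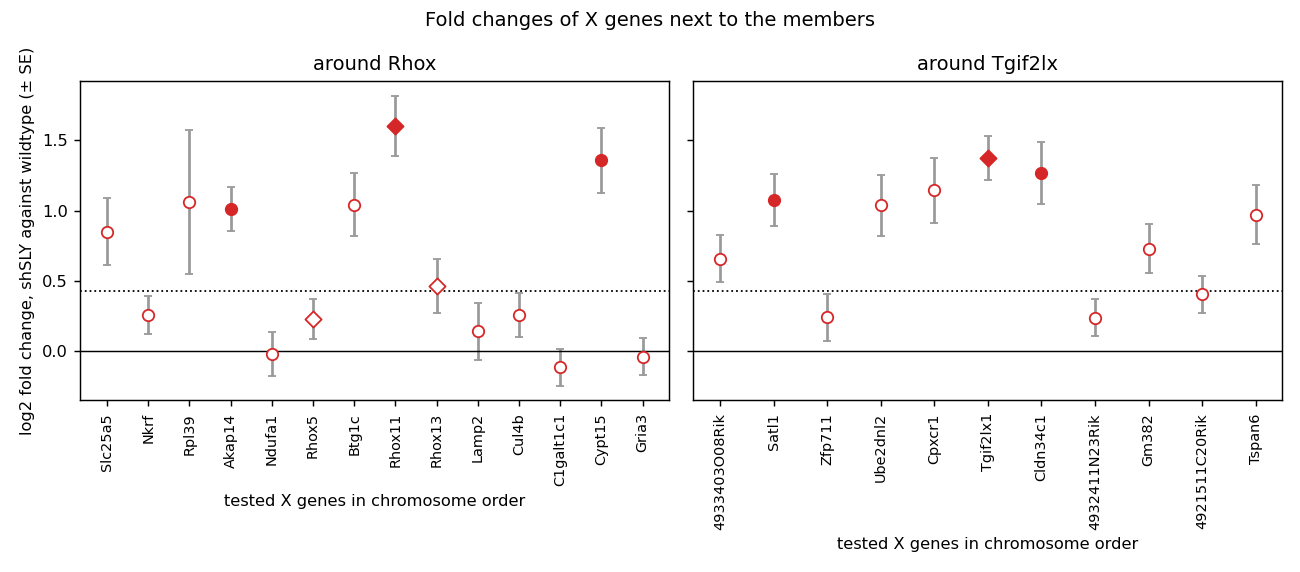
Log2 fold change in the arrays labelled shSLY against wildtype, with bars of 1 SE, for tested X genes in chromosome order around the Rhox members (left) and Tgif2lx1 (right). Diamonds are members, filled points have an adjusted p under 0.05, and the dotted line is the X median of 0.43.

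The array profiles most like these genes came from X and Y. By Pearson correlation over the 8 arrays, Rhox11 was closest to the X genes Actrt1 (r = 0.999), Gm4907 (0.996), Gm5941 (0.995) and Cldn34c1 (0.995) and the Y gene Gm20738 (0.997). Tgif2lx1 was closest to the X genes Zcchc13 (0.993), Cldn34b2 (0.992), Cldn34b4 (0.992) and Asb12 (0.990) and to Ssty2 on Y (0.993). Actrt1 encodes an actin-related protein of the sperm head, and Ssty2 a spindlin relative of spermatids. Rhox11 and Tgif2lx1 correlated with each other at 0.981. All these values describe the same split, in which the 2 shSLY arrays stand above the other 6, and they share the normalization.

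Other genes of the family and of its known pathways showed no call in either comparison. Over all 16572 tested probes, 0.579% were called higher and 0.133% lower in shSLY, and 2.19% and 0.223% in shSLX. No call among so few genes is near those shares. Of 24 further Rhox genes listed, 4 (Rhox1, Rhox6, Rhox9 and Rhox12) had a probe, and none of their 6 probes was detected in any column. Of 18 other TALE homeobox genes, 17 had a probe and 8 were tested, with a median of -0.023 in shSLY and -0.16 in shSLX. Tgif1 was at -0.034 ± 0.15 in shSLY and -0.23 ± 0.12 in shSLX (adjusted p = 0.989 and 0.373). Pbx4, which is expressed in male germ cells, was at 0.32 ± 0.15 in shSLY (adjusted p = 0.59).

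Of 12 other homeobox genes linked to germ cells, 3 were tested and none passed. Hoxa4 was at 0.28 ± 0.13 in shSLY (adjusted p = 0.6), the POU-domain gene Pou5f2 at 0.19 ± 0.14 (0.809), and Lhx8 at 0.52 ± 0.12 in shSLX (0.0727). The X-linked homeobox gene Esx1 had a probe that did not pass the detection filter. Of 13 regulators and targets of Rhox genes, 5 were tested, with medians of 0.18 in shSLY and -0.066 in shSLX. They were the DNA methylation genes Dnmt1, Dnmt3b and Uhrf1, the histone methyltransferase gene Ehmt2 and Piwil2, a gene of the piRNA pathway that was at 0.29 ± 0.14 in shSLY (adjusted p = 0.61). Of 9 partners of TGIF repressors, 5 were tested, with medians of -0.069 and 0.074, and Hdac2, a histone deacetylase, was at -0.20 ± 0.13 in shSLY (adjusted p = 0.788).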

How the data were processed

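The members and gene lists were chosen with earlier results of these data known. The deposited series matrix gives probe intensity on a linear scale that the authors had normalized. Its values run from 46.4 to 42689, and the medians of the 8 arrays from 73.6 to 73.67. A second table pairs each array's intensity before normalization with the p-value of detection, per the file headers. The submitters' processing notes name the programs BeadStudio and GenomeStudio without versions, and the steps are not given in the sources used here.

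For each array the series matrix values went through normexp background correction in limma (offset 50), then quantile normalization, then log2. The detection filter asked for a deposited p-value below 0.01 in at least 2 of the 8 columns, a count that needs no column identity. Group and slide were fitted to the 16572 probes left, on all 8 arrays, with lmFit and eBayes (limma 3.58.1, R 4.3.3; 3 residual and 5.69 prior degrees of freedom). P-values were adjusted by Benjamini-Hochberg over all tested probes, with a threshold of 0.05. The fit was tested on simulated data. All tested member probes are named. For likeness, the 5 closest of 9450 genes by 1 probe each are named, and from the other lists the brightest genes with a few chosen for their role after their values were seen. Probe names came from the platform annotation, updated to GRCm38.p6 symbols. Array number limits the precision. Alternatives were no slide term, a random slide block, 1 slide alone, a replicate block, offset 16, plain log2, other filters, 1 probe per gene, the non-normalized table (neqc) and leaving out each array. No probe was set against another by level.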

Additional observations from a re-analysis of the deposited data

Results flagged for a closer look

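Rhox11 and Tgif2lx1 responded differently in the arrays labelled shSLX and shSLY by limma's test of the difference: the shSLX effect minus the shSLY effect was -1.79 for Rhox11 (adjusted p = 0.0216) and -1.23 for Tgif2lx1 (adjusted p = 0.0259) on the log2 scale. In the non-normalized table as headed, which disputes the array names, the differences were -1.86 (adjusted p = 0.223) and -1.85 (adjusted p = 0.0642). Its columns headed shSLY hold the ranks of the shSLX arrays and those headed shSLX match no array, so this is not the same contrast.

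Among the 4 wildtype arrays, wildtype 4 stood apart for Rhox11, at a log2 signal of 7.85 against 7.75 to 7.77 in the others. Its gap to the next array was 0.863 of the group's range. Chance flags about 5% of groups, 6 probes were examined, and the whole range is small beside the difference of 1.60 in shSLY.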

How the results depend on the processing

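Each alternative was run on the 4 tested probes. In shSLY, where 2 probes passed, 1 passed with offset 16, 0 in the non-normalized table as headed (other values, neqc and other array names together), and 0 to 2 when 1 wildtype array was left out. Rhox11 (-0.19), Rhox13 (-0.11) and Rhox5 (-0.77) turned negative in that table, whose columns headed shSLY hold the ranks of shSLX arrays. The reported fit called 96 of all tested probes higher and 22 lower in shSLY. With offset 16 the counts were 11 and 6, and without wildtype 3 or wildtype 4 they were 2 and 3. In shSLX, where 0 passed, 4 passed in the non-normalized table as headed, with Rhox13 at -1.07 and Tgif2lx1 at -1.80. With 1 wildtype array left out, 0 passed. The non-normalized table called 1344 of all tested probes higher and 1339 lower, against 363 and 37 in the reported fit. Leaving out 1 array gave Rhox11 -0.46 to 0.10 and Tgif2lx1 -0.021 to 0.31 in shSLX. For the difference of effects, where 2 passed, 1 passed with offset 16, 3 with no slide term (Rhox5 at -0.57), 0 in the non-normalized table and 0 to 2 with 1 wildtype array left out. The reported fit called 194 of all tested probes higher and 104 lower for this difference. With offset 16 the counts were 123 and 48, and with no slide term 1187 and 1258. Leaving out 1 array gave Rhox13 differences of -0.45 to 0.014. Values without wildtype 1 could not be had for shSLY or for the difference of effects with the slide term, nor Rhox5 values with probes detected in all columns. The cause of the offset change was not tested.

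Deviations of same-numbered arrays from their group means correlated at -0.084 to 0.22. With 2 arrays in a knockdown group these deviations mirror each other, so both pairs of shSLX and shSLY arrays give the same value (-0.063). Arrays with different numbers were not compared, so whether replicate numbers pair the arrays was not settled. With a replicate block in place of the slide term, 4 probes passed for the difference of effects, and Rhox13 in shSLX was at -0.18. For that difference the block called 2196 of all 16572 tested probes higher and 2187 lower, against 194 and 104 in the reported fit. The block left 2 called in shSLY and 0 in shSLX.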
